A study of Rattus norvegicus with 4 samples.

Results

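Transcripts of the proteasome genes were compared between the hippocampus of sedentary rats and that of rats given 4 weeks of voluntary wheel running. Members were taken by symbol: every noncontrol probe whose annotated transcript resolved to a gene named Psma, Psmb, Psmc, Psmd, Psme, Psmf or Psmg followed by a number, without the immunoproteasome subunits Psmb8, Psmb9 and Psmb10. The rule found 31 genes on 35 probes, of 8899 named genes on 10768 named probes. The rule itself uses names and no measured value, though it was set with earlier results of these data known. Of the 31 genes, 29 (33 probes) belong to the proteasome, namely 13 core subunits, 13 cap genes (ATPases and Psmd genes, among them the base chaperones Psmd9 and Psmd10) and 3 activators. The other 2, Psmc3ip and Psme3ip1, share only the letters of the name and are interaction partners rather than subunits, so they were kept apart.

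The proteasome is the cell's main machine for degrading proteins that carry a ubiquitin chain. Its barrel-shaped core is built from rings of alpha subunits, which gate the entry, and rings of beta subunits, some of which hold the proteolytic sites. A regulatory cap sits on the core, where Psmd subunits bind the tagged protein and Psmc ATPases unfold it. Activators of the Psme family can open the core in place of the cap. In neurons, degradation by the proteasome takes part in synaptic protein turnover and plasticity, and interferon signalling can replace the catalytic beta subunits with the immunoproteasome forms.

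The rats were male Wistar animals, 10 weeks old, allocated to a sedentary group kept in standard cages (10 rats), a wheel running group with no resistance (WR, 8 rats) and a resistance wheel running group (RWR, 8 rats), whose wheel load was raised stepwise to 30% of body weight. Hippocampal RNA of replicates was pooled by group, and the pools need not hold every rat of a group. By the amounts of RNA the paper gives in total and for each replicate, a pool may hold fewer replicates than its group has rats. Each running pool was set against sedentary RNA on 2 chips with the Cy3 and Cy5 dyes swapped: chips 1 and 2 for WR, chips 3 and 4 for RWR, with the running pool in Cy5 on chips 1 and 3. The swapped chips were taken to repeat 1 pool per group, an assumption from the dye-swap design, so no test between conditions across rats is possible. All log2 ratios below are running over sedentary, and a pair mean is the mean of the 2 chips of a pair, in which a gene's dye preference cancels. Every member probe exceeded its background clearly in either dye on all 4 chips and none was saturated, with processed signals between 717 and 35785 over the 29 genes. The precision is limited by the number of chips, and all p-values below are those of the scanner software's error model for a single chip. In the tissue check, all 5 neuron, 3 hippocampus and 4 astrocyte markers with a named probe were well above background on all chips. So were 3 of 4 pituitary and 2 of 2 blood markers with a named probe, so this check does not single out the hippocampus.

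No proteasome gene met the selection rule in either running group. The rule takes its fold limits and p threshold from the study's methods, and their combination on each chip was chosen here. It asks that a probe exceed 1.5-fold, or stay under 0.75-fold, on each of the swapped chips, with an error-model p under 0.01 on each. In WR, 0 of 33 probes were called in either direction, where 0.00244% of all 41008 probes with a value were called higher and 0.0293% lower. In RWR, 0 of 33 were called, against backgrounds of 0.00975% higher and 0.0488% lower. Without the p-value filter the count stayed at 0 in both groups, where 0.212% of all probes were called higher and 0.337% lower in WR, and 0.0878% and 1.39% in RWR. Among the 24955 probes well above background on all chips, as the member probes are, the rates without this filter were lower. They were 0.00801% higher and 0.0801% lower in WR, and 0.0160% and 0.0962% in RWR. With rates this low, no call among 33 probes is what the share of all probes gives, and the count says little about these genes.

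The sizes of the ratios say more. The median log2 ratio of the 29 proteasome genes, each represented by its brightest probe, was -0.016 in WR and -0.037 in RWR. Over all named genes the medians were 0.0016 and -0.0047. The pair mean lay within 0.1 of 0 on the log2 scale for 28 of the 29 genes in WR (96.6%) and for 26 in RWR (89.7%). Ratios scatter less at high signal, so the fairer background is the 2326 named genes at least as bright as the dimmest proteasome gene. Of these, 90.9% in WR and 88.6% in RWR lay within the same limits. Proteasome transcripts were therefore about as close to the sedentary level as other abundant transcripts, and in each group the widest departure was that of a single gene, Psma2.

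**Figure D1:**
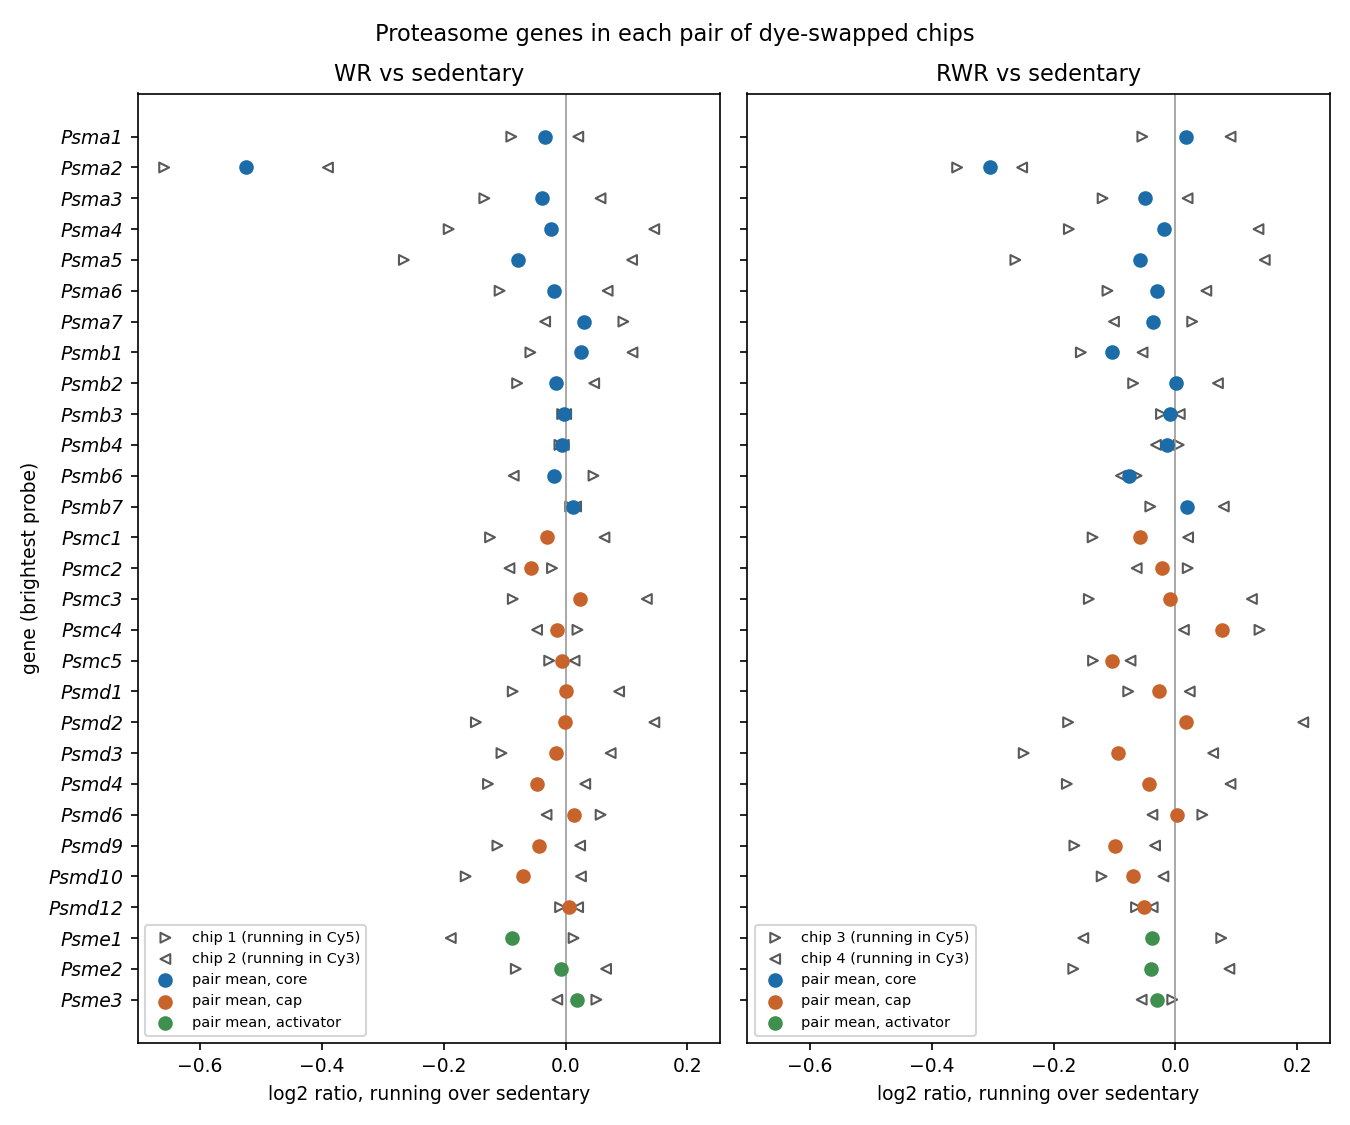
Log2 ratio of running over sedentary (horizontal axis) for the 29 proteasome genes, with open triangles for each chip and filled circles for pair means, coloured by core, cap and activator. In both panels the circles gather around 0 except Psma2, at -0.52 in WR and -0.30 in RWR, while the triangles of a gene often lie on opposite sides of 0.

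Psma2, a subunit of the alpha ring, was lower in the running pool on all 4 chips. On chip 1 its processed signal was 1132 in the sedentary pool and 717 in the WR pool, and on chip 2 it was 1204 and 919. On chip 3 the signal was 1630 in the sedentary pool and 1271 in the RWR pool, and on chip 4 it was 1486 and 1248. Every running value lay below the sedentary value of its chip. The log2 ratios were -0.66 and -0.39 in WR and -0.36 and -0.25 in RWR. The pair means were -0.52 in WR (0.695-fold) and -0.30 in RWR (0.809-fold).

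The error of these means depends on what is counted as error. The error model of the scanner software gave the Psma2 pair mean an error of 0.149 in WR and 0.146 in RWR on the log2 scale. The difference between the dye terms of the 2 pairs of chips gave 0.057 for this gene. Neither contains the variation between rats. The error-model p was 0.00198 on chip 1, 0.0599 on chip 2, 0.0831 on chip 3 and 0.221 on chip 4. Psma2 was the only proteasome gene with a p under 0.01 on any chip, and that chip alone brought it past the lower limit of 0.75-fold, at 0.633-fold, against 0.763-fold on chip 2. Without chip 1, correcting chip 2 with the dye term of the other pair, its WR ratio was -0.44, and without chip 2 it was -0.61.

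Among the 2326 genes at least as bright, 2 (0.0860%), Psma2 included, had a WR pair mean as low as that of Psma2, and 4 (0.172%) did in RWR. This set starts at a mean signal of 950, near the signals of Psma2, and ratios scatter less at high signal. Among the 5928 named genes well above background on all chips, 10 (0.169%) were as low in WR and 35 (0.590%) in RWR. Psma2 was picked as the lowest of the 29 genes, so its rank is a description only. A ratio below 0 on all 4 chips was more common, found for 134 of the 2326 genes (5.76%). Psma2 was measured by 1 probe, and RefSeq lists 2 Psma2 pseudogenes in the rat. Whether their transcripts reach the probe was not tested. In RNA of whole tissue, fewer cells of a type and less RNA per cell cannot be told apart.

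Markers of other cells also differed between these pools. The summed signal of the 4 oligodendrocyte markers, all well above background, was 60452 in the WR pool against 64443 in the sedentary pool on chip 1, and 54745 against 56464 on chip 2. In RWR it was 64657 against 73205 on chip 3, and 53652 against 58368 on chip 4. The summed signal of the 5 choroid plexus markers, of which 2 were well above background on all chips, was 400 against 596 and 329 against 604 in WR, and 769 against 678 and 655 against 637 in RWR. The oligodendrocyte sum was thus lower in running on all 4 chips, though only 2 of its 4 members were lower on both chips of each pair. The choroid plexus sum followed Ttr, which was called lower in WR (-0.86) and read 0.12 in RWR, while 3 of its 5 members, Kcnj13 among them, were not well above background on all chips. The summed signals of the 4 microglia markers, from 2623 to 3124 in the running pools against 2501 to 2991 in the sedentary pool, were higher in running on all 4 chips, with members on either side: Aif1 had means of 0.06 and 0.13, and Itgam of -0.11 and -0.28. The sum was also higher on all 4 chips for the 3 hippocampus markers, from 7914 to 9237 against 7625 to 9096. The pituitary sum was lower in running on chips 1, 2 and 3, and its member Prl, not well above background in the running pools, was called lower in RWR (means of -0.98 in WR and -1.20 in RWR). The sum of 2 blood markers was higher on chip 1 and lower on the other chips, and its member Hbb was below 0 on all 4 (means of -0.05 in WR and -0.11 in RWR). The other member, Alas2, had chips of opposite sign in each pair, with means of 0.0014 in WR and 0.12 in RWR. The neuron and astrocyte sums were higher in running on some chips and lower on others. Their part in the Psma2 values was not tested.

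**Figure D2:**
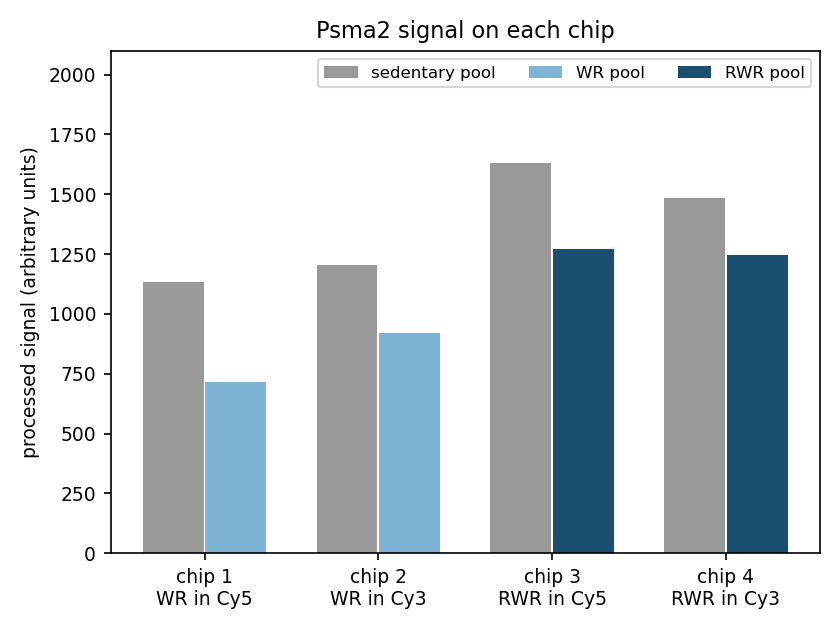
Processed signal of the Psma2 probe (vertical axis, arbitrary units, from 0) in the sedentary pool (grey) and the running pool (blue) of each chip; each bar is 1 spot, with no error bar. The running bar is the lower on every chip, from 717 against 1132 on chip 1 to 1248 against 1486 on chip 4, while both bars are higher on chips 3 and 4 than on chips 1 and 2.

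The other alpha subunits stayed near 0. Of the alpha genes 7 had a named probe, and their median was -0.034 in WR and -0.037 in RWR. Psma5 had the lowest WR pair mean after Psma2, -0.08, made of -0.27 on chip 1 and 0.11 on chip 2, so the chips disagreed in sign. Psma7 had the highest, 0.03, with 0.09 and -0.03. The alpha subunits assemble into one ring in equal numbers, and the transcript of Psma2 had a WR log2 ratio of -0.52 where its neighbours in the ring, Psma6 and Psma4, both had -0.02. In RWR the same 3 genes had pair means of -0.30, -0.03 and -0.02.

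Medians of the 6 beta genes were -0.0045 in WR and -0.011 in RWR. Their pair means ran from -0.02 to 0.03 in WR and from -0.10 to 0.02 in RWR. Of the subunits with a proteolytic site, Psmb6 and Psmb7 were measured and Psmb5 had no named probe. Psmb6, which carries the caspase-like site, read 0.05 and -0.09 on the WR chips (mean -0.02) and -0.06 and -0.09 on the RWR chips (mean -0.08). Psmb7, which carries the trypsin-like site, read 0.01 and 0.02 in WR and -0.04 and 0.08 in RWR, giving means of 0.01 and 0.02. Neither catalytic gene departed by as much as 0.1 in either group. Of the structural beta subunits, Psmb1 was the lowest in RWR at -0.10, below 0 on both chips (-0.16 and -0.05), whereas in WR it read -0.06 and 0.11. Psmb4 gave -0.01 and -0.0030 on the WR chips, a sign shared by both but far inside any error.

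The cap genes had medians of -0.014 in WR and -0.044 in RWR, over 5 ATPases and 8 other genes. Among the ATPases, Psmc2 was lower on both WR chips (-0.02 and -0.09, mean -0.06), while on the RWR chips it read 0.02 and -0.06. Psmc5 was near 0 in WR (-0.03 and 0.01) and lower on both RWR chips (-0.14 and -0.07, mean -0.10). Psmc4 was the only proteasome gene higher on both RWR chips, at 0.14 and 0.01. The second Psmc4 probe did not share this: its RWR pair mean was -0.02 against 0.08 for the brighter probe. The other 3 genes with 2 probes, Psma6, Psmd1 and Psmd2, had probes that differed by at most 0.05 in WR and 0.08 in RWR.

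Of the cap genes that are not ATPases, Psmd9, an assembly chaperone of the cap base, had one of the lowest RWR means. It read -0.17 and -0.03 in RWR (mean -0.10) and -0.11 and 0.02 in WR (mean -0.04). Psmd10, another base chaperone also known as gankyrin, read -0.12 and -0.02 in RWR and -0.16 and 0.03 in WR, with a mean of -0.07 in both. Psmd12, a lid subunit, was lower on both RWR chips at -0.06 and -0.04. The ubiquitin receptor Psmd4 had means of -0.05 in WR and -0.04 in RWR with chips of opposite sign in each pair. The large scaffold subunits Psmd1 and Psmd2 had means of 0.00050 and -0.00082 in WR, and -0.03 and 0.02 in RWR.

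The activators also stayed within 0.1 of 0. Psme1 and Psme2 encode the subunits of the interferon-inducible activator, and Psme3 that of the nuclear activator. Psme1 read 0.01 and -0.19 in WR and 0.08 and -0.15 in RWR, with means of -0.09 and -0.04. Psme2 had means of -0.0077 and -0.04, and Psme3 of 0.02 and -0.03. Psme1 had the lowest WR mean of all 29 genes apart from Psma2, but its chips were on either side of 0. The activator Psme4, the inhibitor Psmf1, the assembly chaperones Psmg1 to Psmg4 and the cap genes Psmc6, Psmd5, Psmd7, Psmd8, Psmd11, Psmd13 and Psmd14 had no probe named through the accession table and were not analysed here, and the same held for Psma8 and Psmb11. Together with Psmb5 these were 16 of 45 genes of the name pattern.

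**Figure D3:**
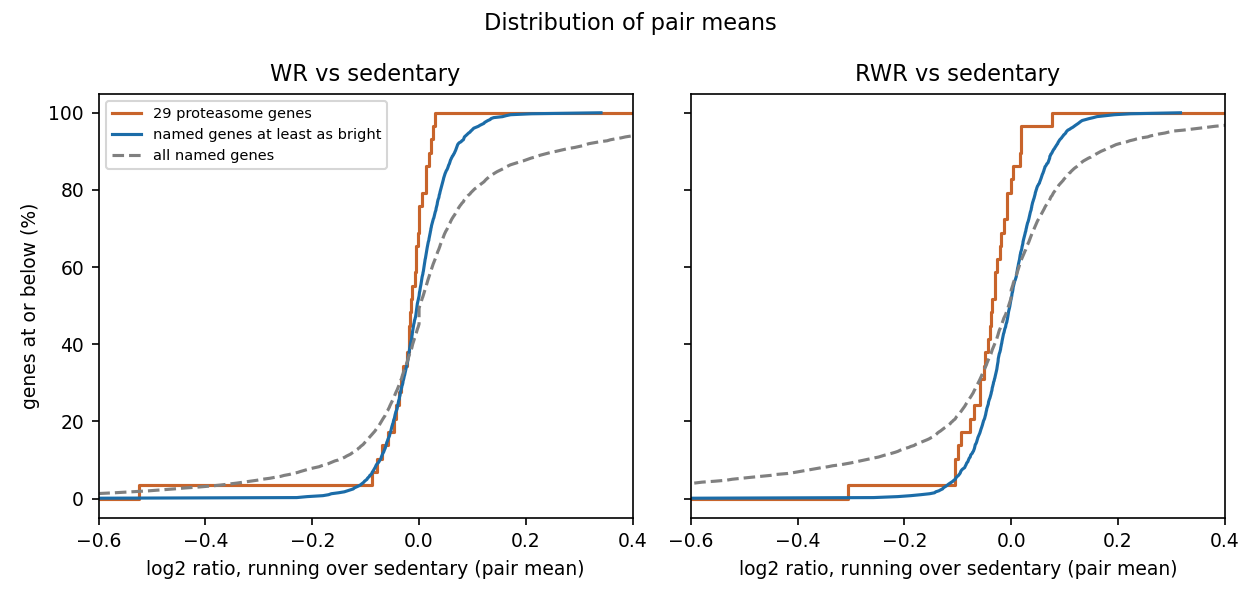
Cumulative share of genes (vertical axis, %) at or below each pair mean (horizontal axis, log2 ratio of running over sedentary) for the 29 proteasome genes, the 2326 named genes at least as bright and all 8899 named genes. The upper part of the proteasome step lies to the left of the curve of equally bright genes in both panels, with medians of -0.016 against -0.0036 in WR and -0.037 against -0.0024 in RWR, and Psma2 is the separate step on the left.

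Agreement between the chips of a pair was counted next. In WR, 3 of the 29 genes were lower on both chips (Psma2, Psmc2 and Psmb4) and 1 was higher (Psmb7), where 15.4% of the 2326 genes at least as bright were lower and 13.9% higher (11.6% and 12.2% of all named genes, and 15.3% and 14.7% of those well above background). In RWR, 8 were lower on both chips (Psma2, Psmb1, Psmb6, Psmc5, Psmd9, Psmd10, Psmd12 and Psme3) and 1 was higher (Psmc4), against 16.0% and 15.8% (15.7% and 12.5% of all named genes, and 17.0% and 15.8% of those well above background). In WR both shares were below the background, but for the lower genes this turned with the processing. With normexp background correction 6 genes (20.7%) were lower on both WR chips against 15.1% of the genes at least as bright, and on uncorrected signals 6 against 16.6%. In RWR the lower share was above the background and the higher share below it under each of these settings. Pair means below 0 were found for 21 of the 29 genes in WR (72.4%) and 23 in RWR (79.3%), against 52.5% and 51.7% of the genes at least as bright. Most of these lay below 0 by a few hundredths of a log2 unit. Both comparisons use sedentary RNA as the denominator, so a low value in one is not independent of a low value in the other.

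The chips of a pair differed largely by a dye preference that the other pair repeated. The dye term of a gene, its mean log2 ratio of Cy5 over Cy3 within a pair, had a median size of 0.07 in the WR pair and 0.06 in the RWR pair, against median sizes of 0.020 and 0.038 for the running ratios. It exceeded the running ratio for 25 of 29 genes in WR and 20 in RWR, and these are the genes whose chips had opposite signs. The dye term kept its sign between the pairs for 28 of 29 genes, from -0.19 and -0.20 for Psma5 to 0.10 and 0.11 for Psme1. Across the 29 genes the dye terms of the pairs correlated with Pearson's r = 0.902, a description over genes that share chips, labelling and dyes. Over all probes the log2 ratios of the swapped chips correlated at r = -0.761 for chips 1 and 2 and -0.686 for chips 3 and 4, and over the 29 proteasome genes at 0.29 and -0.20, or -0.70 and -0.58 without Psma2. A single chip therefore gives no direction for a ratio as small as its dye term.

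The repeatability of the dye terms gives the technical error of a pair mean. From the differences between pairs, the technical spread of a pair mean was 0.024 on the log2 scale over the 29 genes and 0.028 over the 2326 genes at least as bright. It holds no variation between rats, and the error model of the scanner software gives a wider error of 0.204 to 0.213 for a single chip. Without Psma2, the standard deviation between genes was 0.031 in WR and 0.042 in RWR, where the technical spread over the same 28 genes was 0.022. The spread among the 28 remaining genes was thus wider than the technical spread in both groups, and more so in RWR. This was not particular to proteasome genes. Over the 2326 genes at least as bright the standard deviation was 0.064 in WR and 0.068 in RWR, against their technical spread of 0.028. Departures of 0.1 in RWR, such as those of Psmb1, Psmc5 and Psmd9, were larger than these technical spreads and smaller than the error-model error of 1 chip.

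**Figure D4:**
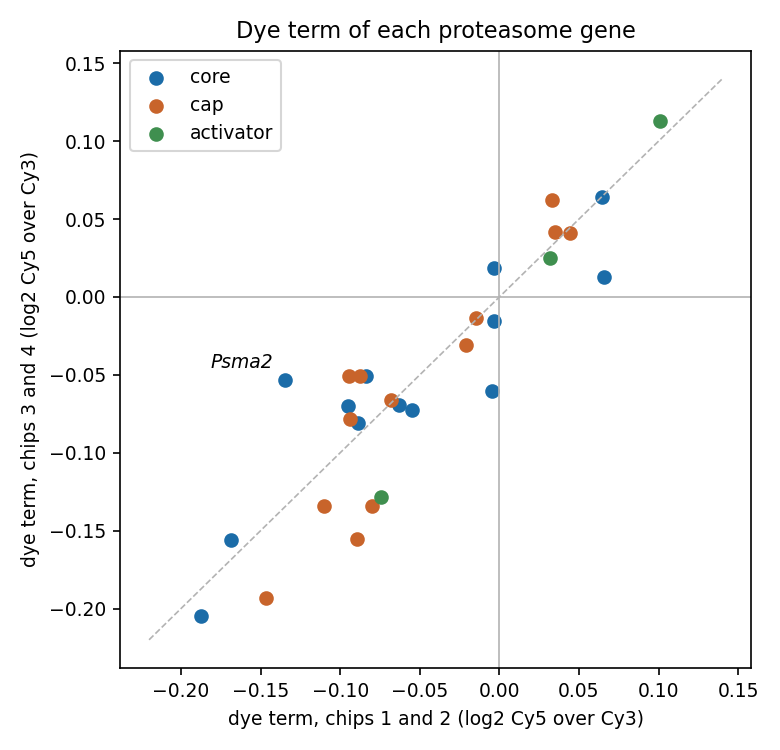
Dye term of each proteasome gene (mean log2 of Cy5 over Cy3) on chips 1 and 2 (horizontal axis) and on chips 3 and 4 (vertical axis), coloured by core, cap and activator, with equal values on the dashed line. The 29 genes lie along the line from about -0.2 to 0.1 (r = 0.902), so the same gene favoured the same dye in both pairs.

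The RWR and WR pools were compared within each dye orientation, as chip 3 minus chip 1 and chip 4 minus chip 2, which removes the dye term and, if the sedentary RNA was the same, the sedentary level. The median RWR minus WR difference of the 29 genes was -0.0099 on the log2 scale. It was close to the -0.0096 of all named genes, while the genes at least as bright had 0.00072. In both orientations 12 genes were lower in RWR and 7 were higher, against 30.7% and 33.6% of the genes at least as bright. Over all named genes the shares were 29.9% lower and 23.7% higher. The 12 of 29 that were lower exceeded both backgrounds, while the 7 that were higher were below the share of equally bright genes and close to that of all named genes. Psmb1 was the lowest in RWR, at -0.10 and -0.16. Psmc5 followed at -0.11 and -0.09, and Psma7 gave -0.07 in both orientations. Psmc4 was higher in RWR by 0.12 and 0.06 on its brighter probe, but its second probe gave -0.09 and 0.02. Psma2 was the highest of all, with 0.30 and 0.14 (mean 0.22): its ratio was nearer to the sedentary level with resistance than without. With 1 pool assumed per group, none of these differences could be tested across rats.

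**Figure D5:**
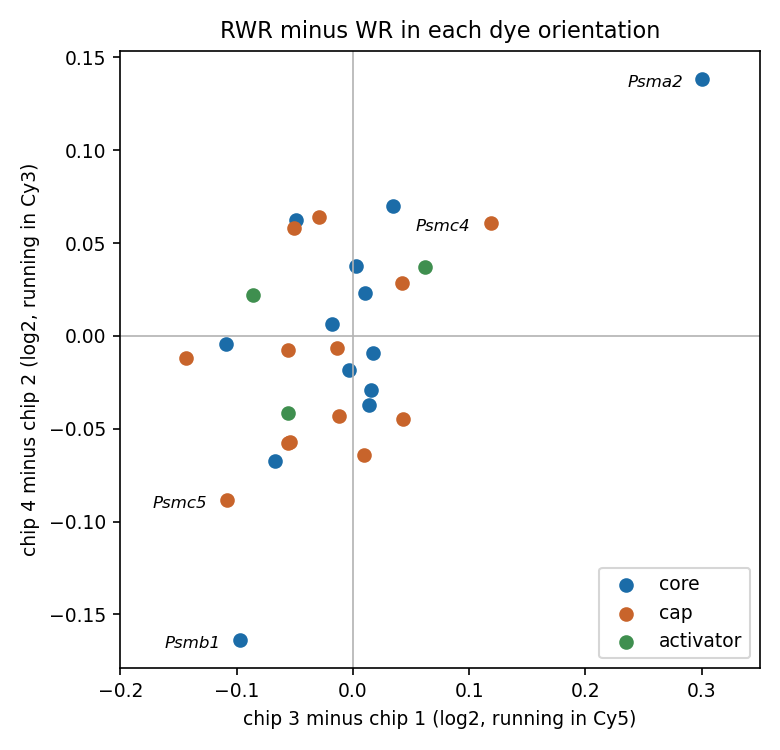
Difference in log2 ratio between RWR and WR for each proteasome gene in the orientation with running in Cy5 (horizontal axis, chip 3 minus chip 1) and in Cy3 (vertical axis, chip 4 minus chip 2), coloured by core, cap and activator. The upper right holds the 7 genes higher in RWR in both orientations, led by Psma2 at 0.30 and 0.14, and the lower left the 12 lower genes, with Psmb1 at -0.10 and -0.16.

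The promoters are shown for Psma2, the gene that stood apart, for the catalytic subunit Psmb6 and for Psmd9, 1 of the lowest genes in RWR and the only proteasome gene with 2 TGACNNNGC matches among those with a promoter. Each line is the 250 bases before the annotated start, 5′ to 3′ on the gene's strand, from RefSeq on build GRCr8 (Psma2 at chr17:55260442-55260691, minus strand, Psmb6 at chr10:55737638-55737887, plus strand, Psmd9 at chr12:39018265-39018514, minus strand). Capitals mark matches on either strand to TGACNNNGC, the core of the antioxidant response element through which Nfe2l1 and Nfe2l2 act on proteasome genes, or to CCAAT, the box bound by NF-Y; the motifs are not contained in each other.
Psma2: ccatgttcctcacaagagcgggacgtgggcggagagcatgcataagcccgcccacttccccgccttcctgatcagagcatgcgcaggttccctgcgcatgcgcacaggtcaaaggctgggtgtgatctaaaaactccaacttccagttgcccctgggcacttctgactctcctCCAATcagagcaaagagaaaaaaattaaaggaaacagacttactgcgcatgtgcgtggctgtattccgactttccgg
Psmb6: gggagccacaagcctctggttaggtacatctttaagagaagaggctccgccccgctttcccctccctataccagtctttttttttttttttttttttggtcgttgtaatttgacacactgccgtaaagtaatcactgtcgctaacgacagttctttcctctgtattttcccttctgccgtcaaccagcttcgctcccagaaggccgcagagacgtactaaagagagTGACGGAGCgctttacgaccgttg
Psmd9: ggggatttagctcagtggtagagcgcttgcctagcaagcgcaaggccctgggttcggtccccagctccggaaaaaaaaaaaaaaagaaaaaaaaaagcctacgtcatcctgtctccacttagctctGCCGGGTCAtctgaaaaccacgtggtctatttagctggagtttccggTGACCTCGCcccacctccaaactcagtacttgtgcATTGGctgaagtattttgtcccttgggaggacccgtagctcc
Psma2 held 1 CCAAT box, 77 bases before the start, and no TGACNNNGC. Psmb6 held 1 TGACNNNGC 24 bases before the start and no CCAAT. Psmd9 held 2 TGACNNNGC, 1 of them on the opposite strand, and 1 CCAAT on the opposite strand. Promoters were matched for 26 of the 29 genes. TGACNNNGC was found in 5 of them (19.2%) and in 10.1% of all 33469 promoters of the same length. CCAAT was found in 15 (57.7%) and in 34.0% of all promoters, 3 had both and 9 neither. The median GC content was 55.6% in the 26 promoters and 51.2% in all. These are matches of letters in a window, not binding sites.

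The immunoproteasome subunits, which are not members, were measured at signals down to 164. Psmb8 read -0.07 and -0.62 in WR and 0.02 and -0.28 in RWR. Psmb9 read -0.46 and -0.16 in WR and -0.20 and 0.03 in RWR. Psmb10 read -0.10 and -0.04 in WR and -0.07 and -0.03 in RWR. All 3 were lower on both WR chips, with means of -0.35, -0.31 and -0.07, and none was called. Of 13 interferon-response genes with a named probe, 9 were lower on both chips in WR and 8 in RWR, with medians of -0.23 and -0.17, where 11.6% and 15.7% of all named genes were lower on both chips. Cxcl10, an interferon-induced chemokine, fell in both groups by the selection rule (-1.52 in WR and -1.43 in RWR), and Rsad2, an antiviral enzyme, fell in WR (-0.80). The interferon-inducible activator genes Psme1 and Psme2 stayed within 0.1 of 0.

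Other genes of the ubiquitin pathway were measured in part. Of the proteasome cofactors and transcriptional regulators, 7 of 17 listed genes had a named probe, none was called and the median was 0.02 in both groups. In WR 3 of the 7 were higher on both chips and 0 lower, and in RWR 1 was higher and 1 lower, where 12.2% of all named genes were higher and 11.6% lower in WR, and 12.5% and 15.7% in RWR. The ubiquitin receptor Adrm1 had the highest RWR mean of these, 0.14, with 0.15 and 0.14 on its chips, and read -0.14 and 0.19 in WR. The stress-induced Zfand2a had the highest WR mean, 0.21 (0.13 and 0.29). Nfe2l2, a regulator of stress genes, had means of -0.05 and 0.03. Of the shuttle factors and segregase genes, 7 of 9 had a named probe, with medians of 0.0031 in WR and -0.031 in RWR, and Vcp, the segregase itself, had means of 0.0036 and -0.10. Its cofactor Nploc4 had means of -0.19 and -0.17, from chips of opposite sign in each pair and not well above background on all chips. Of the ubiquitin genes and ubiquitin enzymes, 10 of 19 had a named probe, with medians of 0.011 and -0.0019. The ubiquitin fusion gene Rps27a was lower on both RWR chips (-0.19 and -0.12, mean -0.16) and read -0.19 and 0.05 in WR. None of the genes of these 2 lists was called in either group. The name-only gene Psmc3ip had means of -0.08 in WR and -0.06 in RWR, and Psme3ip1 of -0.06 and -0.05.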

How the data were processed

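Hippocampal RNA pools were labelled with Cy3 or Cy5, hybridised in dye-swapped pairs to 4 rat whole-genome chips with 60-base probes, and scanned. Per the file headers and the study's methods, the authors ran Agilent Feature Extraction 11.0.1.1, which removed background (spatial detrending included), applied LOWESS dye normalization and gave a processed intensity per dye, a log10 ratio of Cy5 over Cy3, its error and an error-model p-value per spot. The authors deposited these scanner files and a value table, whose log10 ratios matched those of the scanner files and were not turned to one direction. Here the log10 ratios were multiplied by 3.32 to give log2 and turned to running over sedentary, the dyes being taken from the labels. Control spots and outlier spots were left out and spots of a probe were averaged. Probes were named through accessions in the RefSeq gene table (GRCr8). A gene was represented by the probe with the highest mean processed intensity over dyes and chips. The technical spread of a pair mean was the root mean square difference between the dye terms of the pairs, divided by the square root of 2. Values by chip are given for up to 5 member genes per direction with the same sign on both chips, for catalytic subunits and for the activator Psme1. They are also given for genes that stood out in a stated comparison, chosen after their values were seen. The other activators and the called genes of other lists are given as pair means. No test between conditions was run. The selection was tested on simulated data with 200 changed probes of 41003, each changed 2-fold and with the same noise at every probe. Of these, 74% in WR and 72% in RWR were recovered without the p-value filter, none in the wrong direction. The error of the simulated pair means had a standard deviation of 0.071, where the measured technical spread over all named genes was 0.24. The rule with its p-value filter was not scored, so these shares do not say how often smaller changes in the member genes would be called. The members, lists, motifs and alternatives were chosen with earlier results of these data known. Calculations used Python 3.11.15, pandas 2.3.3 and, for the alternatives with loess, limma 3.58.1 in R 4.3.3 with an offset of 50.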

Additional observations from a re-analysis of the deposited data

How the results depend on the processing

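With the cutoffs set on the pair mean and an error-model p under 0.01 on at least 1 chip, 1 proteasome probe was called in WR, that of Psma2, in place of 0. No other selection rule or background correction called one in either group. The number of genes lower on both WR chips was 3 as reported, 6 with normexp, 6 on uncorrected signals and 5 when probes of a gene were summarised by their median. Its share was below that of the genes at least as bright as reported (10.3% against 15.4%) and above it in these 3 settings (20.7% against 15.1%, 20.7% against 16.6% and 17.2% against 16.0%). The number higher on both WR chips was 1, or 2 on uncorrected signals, and the number higher on both RWR chips was 1, or 0 with the median over probes. Leaving out a chip lets the dye term in: the median of the 29 genes ran from -0.08 to 0.02 in WR and from -0.11 to 0.01 in RWR. With the dye term taken from the other pair it ran from -0.016 to -0.010 and from -0.0324 to -0.0322. The activator median in WR, over 3 genes, had no stable sign when a chip was left out: -0.014 without chip 1 and 0.013 without chip 2, or -0.062 and 0.025 with the dye term of the other pair. With all chips kept, the median of the 29 genes ran from -0.018 to -0.013 in WR and from -0.038 to -0.028 in RWR over the other settings. Psma2 was -0.44 in WR and -0.31 in RWR with normexp, and -0.45 and -0.31 without background correction. It stayed below 0 under each alternative run. Of 348 gene values recomputed with all chips kept, 344 moved by less than the standard deviation of the 2 chips. That standard deviation contains the dye term, which cancels in a pair mean, so it is a wide limit and the count says little about stability. The largest move was 0.086, and no gene other than Psma2 moved by more than 0.05. The largest move other than that of Psma2, 0.047, exceeded the technical spread of a pair mean, 0.024. Leaving out Psma2, adding the 2 name-only genes and using the genes at least as bright as background, with their shares in other settings, were chosen after seeing the data. No paired analysis was run, because the replicate numbers were taken to mark the dye orientation of 1 pool and not separate rats. With 1 pool assumed per group, a difference between rats, pools and running conditions cannot be told apart. Pair means farther from 0 than 2 times the technical spread were found for 5 of the 29 genes in WR and 12 in RWR, where 36.1% and 41.2% of the genes at least as bright passed the same limit.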
